A study of Mus musculus with 23 samples.

Results

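The 8 genes described here, which act at the astrocyte endfoot and in astrocyte gap junctions, were followed through single cells of mouse brain: Aqp4, Kcnj10, Dag1, Dtna, Gja1, Gjb6, Mlc1 and Hepacam. They were picked by symbol from the gene list of the deposited matrix, 8 of 32285 genes. Mice received 45 mg/kg of a dye-coupled (AF647) antibody by the tail vein and were perfused 24 hours later. ATV-TfR, an antibody transport vehicle that binds the transferrin receptor of brain capillaries, was given to TfR mu/hu KI mice. ATV-CD98hc, which binds CD98hc, was given to CD98hc mu/hu KI mice, and C57BL/6 mice received a control IgG, so that antibody and genotype cannot be told apart. The labels name LALAPG in all 3 antibodies, and both knock-in lines are on a C57BL/6J background. Mice were 12 weeks old in the series text and 3.3 months in the sample labels. Brain tissue, from which cerebellum, pons, medulla and olfactory bulb had been removed, was dissociated in the presence of actinomycin D and anisomycin. Live cells were sorted by AF647 signal into a negative, a low, a medium and a high bin, with the gates taken from ATV-TfR mice. Each of 2 pools per treatment held cells of 1 male and 1 female, and each pool and bin is 1 library. The 23 libraries make 12 groups, 11 with 2 libraries and 1 (control IgG negative) with 1.

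An endfoot is the part of an astrocyte that wraps a brain capillary. Aqp4 encodes its water channel and Kcnj10 encodes the potassium channel Kir4.1. Dag1 encodes dystroglycan, the receptor for the laminin of the vessel's basement membrane, and Dtna encodes dystrobrevin alpha, a cytoplasmic partner in the same complex, which holds the water channel in place at the endfoot. Gja1 and Gjb6 encode connexin 43 and connexin 30, which join neighbouring astrocytes and endfeet by gap junctions. Mlc1 and Hepacam encode MLC1 and GlialCAM, membrane proteins that meet at astrocyte junctions and act in ion and water balance.

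On the GRCm38 build, in the GENCODE annotation, Kcnj10 lies at chr1:172341210-172374085 and Gja1 at chr10:56377330-56402513, both on the plus strand. Gjb6 lies at chr14:57123303-57133611, Dag1 at chr9:108204634-108263958 and Mlc1 at chr15:88955884-88979007, all on the minus strand. Hepacam lies at chr9:37367351-37386575 on the plus strand. All 8 are protein-coding. The table of RefSeq gene starts (GRCm38.p6) matched 6 of the 8 by symbol, without Aqp4 and Dtna. Dag1 has another RefSeq start, whose window overlaps annotated exons and is left out. The windows of Mlc1 and Hepacam overlap an annotated exon and are not printed. The 250 bases before the start are shown for the other 4, because they cover a gene called with ATV-CD98hc (Kcnj10), a gene called with ATV-TfR (Gja1), a gene called with both (Dag1) and the second connexin, which was not called (Gjb6). Each is written 5′ to 3′ along the gene's strand, and capitals mark every match, on either strand, to one of 4 motifs: TTGGC (NFI half-site), ACAAT (SOX core), TGANTCA (AP-1) and TTCNNNGAA (STAT).
Kcnj10, chr1:172340960-172341209: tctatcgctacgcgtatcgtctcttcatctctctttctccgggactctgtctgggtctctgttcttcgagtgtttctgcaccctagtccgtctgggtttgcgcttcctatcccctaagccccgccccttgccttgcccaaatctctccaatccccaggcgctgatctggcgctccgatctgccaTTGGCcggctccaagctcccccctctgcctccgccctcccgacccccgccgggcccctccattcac
Gja1, chr10:56377050-56377299: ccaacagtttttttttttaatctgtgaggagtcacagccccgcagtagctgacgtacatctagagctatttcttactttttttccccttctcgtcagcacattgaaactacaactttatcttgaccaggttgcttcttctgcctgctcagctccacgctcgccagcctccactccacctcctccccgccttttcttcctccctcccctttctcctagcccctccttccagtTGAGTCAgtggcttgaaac
Dag1, chr9:108263959-108264208: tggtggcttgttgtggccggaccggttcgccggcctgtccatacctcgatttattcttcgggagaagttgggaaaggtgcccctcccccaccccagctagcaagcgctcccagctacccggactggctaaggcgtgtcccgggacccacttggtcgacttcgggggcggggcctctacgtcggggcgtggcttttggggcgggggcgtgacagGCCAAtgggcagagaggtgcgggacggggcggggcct
Gjb6, chr14:57133612-57133861: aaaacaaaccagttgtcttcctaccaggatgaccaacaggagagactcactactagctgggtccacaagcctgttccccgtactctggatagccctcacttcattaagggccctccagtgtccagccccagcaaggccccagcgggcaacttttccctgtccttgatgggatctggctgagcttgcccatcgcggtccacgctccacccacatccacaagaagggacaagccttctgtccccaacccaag
The NFI half-site was found once before Kcnj10 (positions -66 to -62, counted back from the start) and once before Dag1 (-37 to -33), and AP-1 once before Gja1 (-19 to -13). The RefSeq start of Gja1, from which these positions are counted, lies upstream of the GENCODE start given above, and none of the 8 GENCODE transcripts of Gja1 holds the first 20 bases after it. For the starts used here, those bases are held by 1 of 7 transcripts of Dag1, 1 of 4 of Gjb6 and 1 of 1 of Kcnj10. None of the 4 motifs was found before Gjb6. Of the 32851 RefSeq windows of this length, 41.5% hold the NFI half-site, 27.7% the SOX core, 6.75% AP-1 and 7.02% STAT, so these matches are a description of the letters and no more. The G and C content was 62% before Kcnj10, 67.6% before Dag1, 56.8% before Gjb6 and 50% before Gja1.

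Library totals ran from 1861238 to 90307818 UMIs (unique molecular identifiers, each counting 1 captured RNA molecule once). After filtering, 234022 cells were kept, 519 to 19339 per library. Clustering and marker genes, with the 8 genes kept out of the clustering, gave 10 classes named with the ending -like and 6 unnamed clusters with 9478 cells. Astrocyte-like cells numbered 91950 in 5 clusters. Their 12 markers (such as Slc1a2, Slc1a3 and Aldoc) summed to 21349 to 31325 UMIs per 1000000 in the libraries used. In all, 17 libraries had at least 20 astrocyte-like cells and entered the fit, with 182 to 15074 such cells each and median depths of 2860 to 5654.5 UMIs per cell. All 8 ATV-TfR and all 8 ATV-CD98hc libraries were among them, but control IgG had 1 (negative, 5031 cells), because its 6 brighter libraries held 2 to 14 astrocyte-like cells each. Of the kept cells, 13460 carried a barcode sequence that also occurred in another library, and these were kept. Nothing in the labels gives a batch beyond the pools. With 2 pools per group, the p-values measure the spread between pools of mice.

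The first comparison asked in which cells the 8 genes were found. A level is given as the gene's counts per 1000000 UMIs (CPM) of a class, as the mean over pools with at least 20 cells. Of the 8 genes, 6 had their highest level in astrocyte-like cells: Aqp4, Kcnj10, Dtna, Gja1, Gjb6 and Hepacam. Mlc1 was highest in ependymal-like cells and Dag1 in smooth muscle-like cells. Levels were compared between classes within a gene, as a description over pools that share animals across classes.

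Aqp4 stood at 724 ± 28 CPM in astrocyte-like cells (SD, n = 5 pools) and at 318 ± 50 in ependymal-like cells (n = 6), which line the ventricles. No other class exceeded 5.40% of the astrocyte-like level of Aqp4. Kcnj10 stood at 270 ± 18 CPM in astrocyte-like cells, at 195 ± 19 in oligodendrocyte-like cells and at 109 ± 26 in ependymal-like cells. The potassium channel gene was thus present in oligodendrocyte-like cells at 72.2% of its astrocyte-like level.

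Dag1 was the most widespread of the 8. It stood at 329 ± 25 CPM in smooth muscle-like and 260 ± 15 in pericyte-like cells, the mural cells of the vessel wall (SD, n = 5 pools). Fibroblast-like (160 ± 16, n = 6), astrocyte-like (156 ± 6.9, n = 5) and ependymal-like cells (142 ± 22, n = 6) came next and did not differ beyond their spread. Endothelial-like cells held 83.2 ± 7.2 CPM of Dag1. Dtna, its intracellular partner, stood at 1168 ± 37 CPM in astrocyte-like cells, 374 ± 56 in ependymal-like, 199 ± 16 in oligodendrocyte-like and 128 ± 9.5 in smooth muscle-like cells.

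The 2 connexin genes shared a second class. Gja1 stood at 1177 ± 38 CPM in astrocyte-like, 267 ± 35 in ependymal-like and 183 ± 75 in fibroblast-like cells, and Gjb6 at 429 ± 40 in astrocyte-like and 221 ± 57 in fibroblast-like cells. In ependymal-like cells Gjb6 stood at 19 ± 14 CPM, 4.43% of its astrocyte-like level, while Gja1 stood there at 22.7% of its own. In endothelial-like cells Gja1 held 32.6 ± 8.6 CPM, 2.77% of its astrocyte-like level, and the other genes apart from Dag1 held 0.317% to 0.686% of theirs. The Gja1 level lay below the 69.0 CPM of microglia-like cells over all 4 endothelial-like clusters together, but at 109 ± 37 CPM (SD, n = 5 pools, 285 cells) in the smallest of them, cluster 17. Those levels are over all bins. In the high bins alone Gja1 stood at 36.5 ± 7.1 CPM in endothelial-like (n = 4 pools) and 6.96 ± 6.7 in microglia-like cells (n = 3). In the negative bins it stood at 40.7 ± 15 and 15.6 ± 5.8 (n = 5 each). The astrocyte markers summed to 126 and 184 CPM in the high and 1123 and 736 in the negative bins. Whether endothelial-like cells express Gja1 was not tested.

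Mlc1 and Hepacam, whose proteins act together, differed outside astrocytes. Mlc1 stood at 316 ± 24 CPM in astrocyte-like and 657 ± 169 in ependymal-like cells and at 4.56% of the astrocyte-like level in oligodendrocyte-like cells. Hepacam stood at 617 ± 12 CPM in astrocyte-like, 421 ± 11 in oligodendrocyte-like (68.3%) and 260.5 ± 24 in ependymal-like cells.

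In microglia-like cells, which serve here as a class that should lack these genes, 7 of the 8 stood at 5.40% to 7.80% of their astrocyte-like level. Dag1 stood at 22.8% there. The 12 astrocyte markers summed to 1789 CPM in microglia-like cells, against 23988 in astrocyte-like cells. In the ATV-TfR negative bin, median depths over all cells were 2660 and 2953 UMIs in microglia-like and 3979 and 4451 in astrocyte-like cells. The share of microglia-like cells with an Aqp4 UMI was taken after thinning to 1500 UMIs, with cells below that depth left out. It was 1.08% in the negative bin of ATV-TfR and 9.37% and 11.4% in its low and medium bins. For Dtna these shares were 1.86%, 16.4% and 15.4%. For Dag1 they moved less, at 4.16%, 5.55% and 5.36%, and stood at 5.09%, 6.56%, 4.87% and 3.49% from the negative to the high bin of ATV-CD98hc. In ATV-CD98hc the share for Aqp4 was 1.64% in the negative, 9.04% in the low, 0.981% in the medium and 0.251% in the high bin, so that the level in microglia-like cells was carried by some of the bins. Levels at or below those of microglia-like cells are not told apart from background here and are not read as expression. Whether the Dag1 level of microglia-like cells is itself background was not tested.

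**Figure D1:**
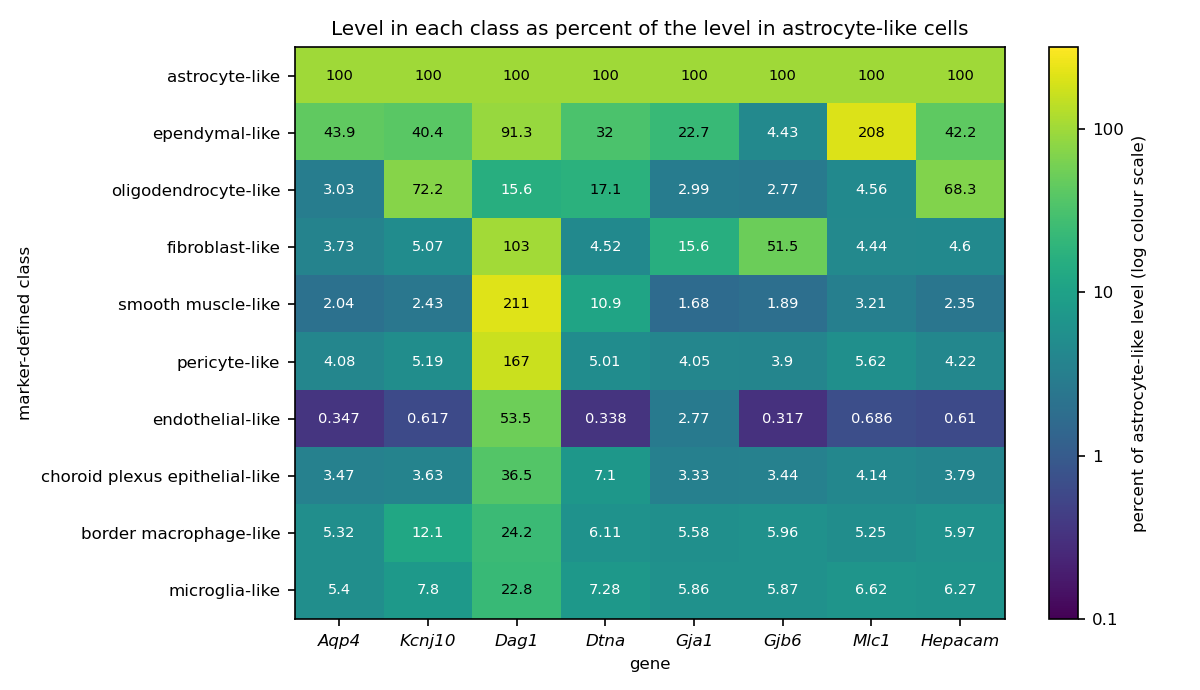
Mean level of each gene (columns) in each marker-defined class (rows), as percent of the gene's level in astrocyte-like cells, with the percent printed and a log colour scale. Mlc1 reaches 208% in ependymal-like cells and Dag1 211% in smooth muscle-like cells, while Kcnj10 and Hepacam reach 72.2% and 68.3% in oligodendrocyte-like cells.

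The main comparison asked how the 8 genes changed in astrocyte-like cells with the AF647 signal of the bin. In ATV-TfR mice Mlc1, Dag1, Aqp4 and Gja1 rose from the negative to the high bin, and Mlc1 rose most, about 2.45-fold. In ATV-CD98hc mice Kcnj10, Mlc1 and Dag1 rose, and Kcnj10 rose most, about 1.84-fold. Dtna, Gjb6 and Hepacam passed the test in neither antibody. Changes are log2 differences with their standard errors from edgeR's quasi-likelihood test on UMIs summed per library, with p-values adjusted by Benjamini-Hochberg over the 16012 genes tested. All 8 genes passed the filter on low counts in every contrast. In bulk sums of this kind, fewer cells carrying a gene and less RNA per cell cannot be told apart. Because the fit rescales libraries by TMM factors, its changes in the ATV-TfR high bin lie 0.12 above the log2 ratio of the CPM values given here, and in the other bins within 0.06 of it.

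Mlc1 stood at 270 and 266 CPM in the 2 negative libraries of ATV-TfR (replicates 1 and 2), 291 and 285 in the low, 377 and 374 in the medium and 610 and 598 in the high libraries. The 4 bins did not overlap. The change was 1.29 ± 0.12 (SE) from negative to high (adjusted p = 5.0e-07, edgeR) and 0.55 ± 0.11 from negative to medium (adjusted p = 0.0052). In ATV-CD98hc Mlc1 stood at 228 and 305 CPM in the negative, 326 and 326 in the low, 344 and 416 in the medium and 352 and 393 in the high libraries. The negative libraries lay below all others, and the medium and high libraries overlapped. Here the change was 0.44 ± 0.13 to the high (adjusted p = 0.041) and 0.55 ± 0.11 to the medium bin (adjusted p = 0.0024).

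Dag1 stood at 127 and 128 CPM in the negative, 133 and 138 in the low, 158 and 170 in the medium and 202 and 204 in the high libraries of ATV-TfR. Again no bins overlapped, and the change to the high bin was 0.79 ± 0.09 (adjusted p = 5.4e-06, edgeR), with 0.42 ± 0.08 to the medium bin (adjusted p = 0.0029). In ATV-CD98hc its libraries stood at 147 and 141 (negative), 164 and 158 (low), 184 and 180 (medium) and 201 and 190 CPM (high). The order of the bins was the same as for ATV-TfR, with a change of 0.40 ± 0.10 to the high bin (adjusted p = 0.018) and 0.37 ± 0.08 to the medium bin (adjusted p = 0.0040). Dtna, in the same complex, stood at 1135 and 1122 CPM in the negative and 1008 and 1055 in the high libraries of ATV-TfR, and at 1316 and 1136 against 1137 and 1128 in ATV-CD98hc. Its changes were -0.01 ± 0.09 (adjusted p = 0.95) and -0.16 ± 0.09 (adjusted p = 0.38).

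Aqp4, the water channel, stood at 638 and 601 CPM in the negative, 689 and 670 in the low, 832 and 791 in the medium and 985 and 860 in the high libraries of ATV-TfR. No bins overlapped, and the change was 0.70 ± 0.12 to the high bin (adjusted p = 0.00067, edgeR) and 0.45 ± 0.12 to the medium bin (adjusted p = 0.037). In ATV-CD98hc the high libraries of Aqp4 lay apart, at 884 and 606 CPM, and spanned the negative libraries at 657 and 623. The change there was 0.18 ± 0.13 (adjusted p = 0.48).

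For Kcnj10, the potassium channel gene, the change was called in ATV-CD98hc. Its ATV-CD98hc libraries stood at 237 and 193 CPM in the negative, 267 and 239 in the low, 337 and 316 in the medium and 472 and 342 in the high bin. The 4 bins did not overlap, and the changes were 0.88 ± 0.13 to the high (adjusted p = 0.00021, edgeR) and 0.64 ± 0.12 to the medium bin (adjusted p = 0.0012). In ATV-TfR Kcnj10 stood at 282 and 295 CPM in the negative and 328 and 288 in the high libraries, which overlapped, with a change of 0.22 ± 0.12 (adjusted p = 0.25). The negative libraries of ATV-CD98hc were the lowest of all libraries for Kcnj10, and the single control IgG negative library stood at 291 CPM.

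Gja1, connexin 43, stood at 1044 and 1088 CPM in the negative, 1121 and 1111 in the low, 1263 and 1218 in the medium and 1313 and 1195 in the high libraries of ATV-TfR. Its high libraries lay above the negative ones, and the change was 0.35 ± 0.09 (adjusted p = 0.0099, edgeR). In ATV-CD98hc Gja1 stood at 1130 and 1107 CPM in the negative and 1026 and 935 in the high libraries, a change of -0.23 ± 0.09 that did not pass (adjusted p = 0.15). Gjb6, connexin 30, stood at 450 and 411 CPM in the negative and 414 and 394 in the high libraries of ATV-TfR, and at 412 and 387 against 449 and 351 in ATV-CD98hc. Its high and negative libraries overlapped in both, with changes of 0.03 ± 0.11 in ATV-TfR (adjusted p = 0.90) and -0.03 ± 0.13 in ATV-CD98hc (adjusted p = 0.92). Hepacam stood at 591 and 627 CPM in the negative and 590 and 632 in the high libraries of ATV-TfR. In ATV-CD98hc it stood at 607 and 667 in the negative and 511 and 551 in the high libraries, a change of -0.31 ± 0.10 (adjusted p = 0.056). With the pool as a block, so that each bin is set against the negative bin of the same mice, Hepacam passed there (-0.31, adjusted p = 0.026).

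**Figure D2:**
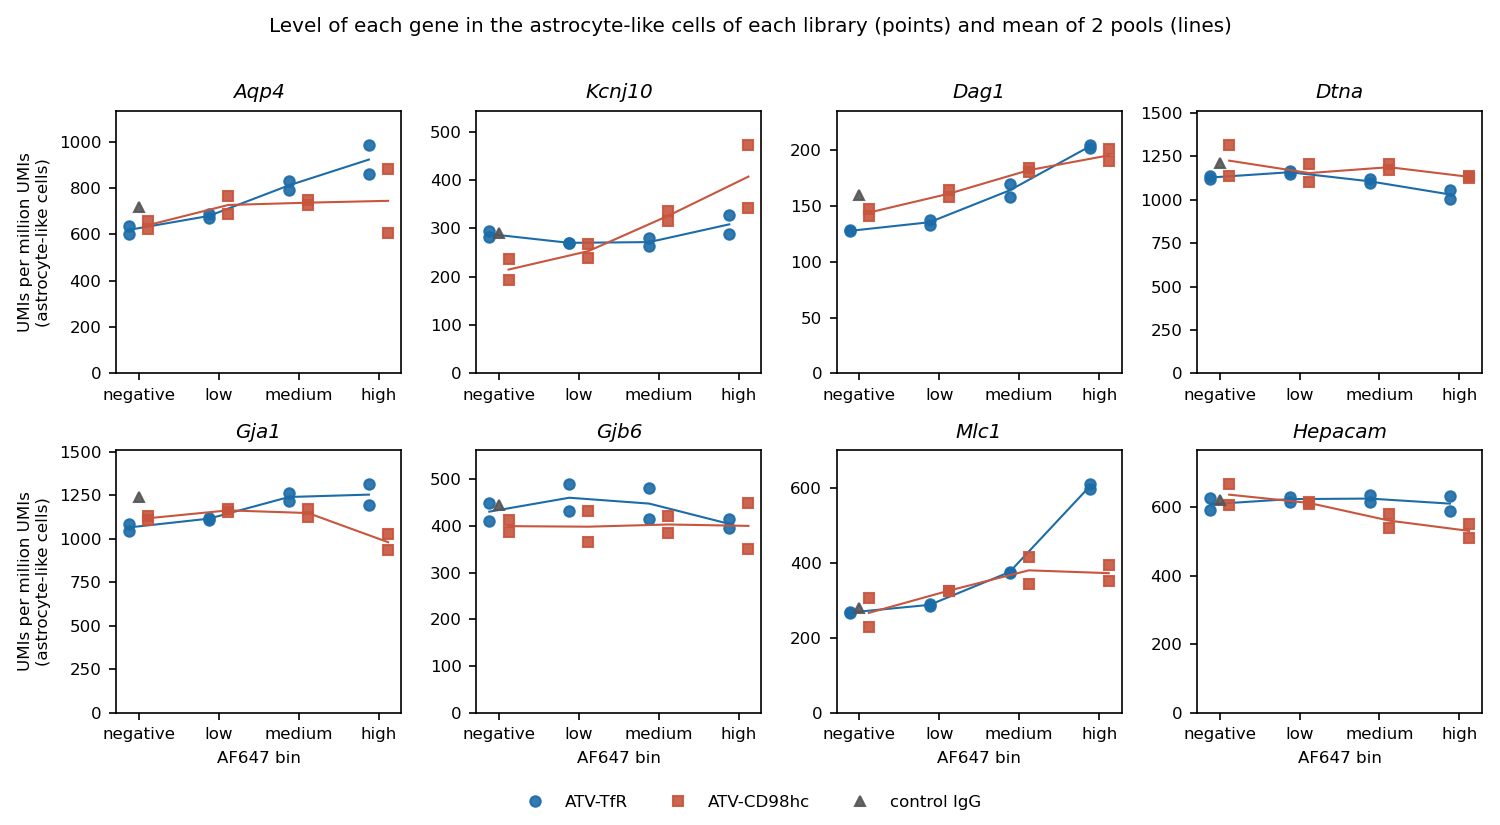
Level of each gene in CPM (y axes start at 0) in the astrocyte-like cells of each library, by AF647 bin. Points are libraries, lines join the means of 2 pools, and control IgG has its negative library alone. Mlc1 in ATV-TfR climbs from 266 and 270 in the negative to 598 and 610 in the high libraries, and Kcnj10 in ATV-CD98hc from 193 and 237 to 342 and 472.

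In counts, 4 of 8 genes rose in the ATV-TfR high bin, where 9.80% of all genes tested rose (16.4% changed in either direction), and 3 of 8 in its medium bin, where 1.61% rose (4.43% in either direction). With the pool as a block Gja1 rose there too (0.28, adjusted p = 0.041). In ATV-CD98hc 3 of 8 rose in the high bin, against 3.93% of all genes (7.71% in either direction), and 3 of 8 in the medium bin, against 7.41% (15.1%). None of the 8 fell in any bin without the block, and Hepacam fell with it in the ATV-CD98hc high bin, as given above. Of all genes, 1.44%, 2.82% and 6.61% fell in the low, medium and high bins of ATV-TfR, and 1.31%, 7.71% and 3.78% in those of ATV-CD98hc. In the low bin none passed in either antibody, where 1.45% (ATV-TfR) and 2.85% (ATV-CD98hc) of all genes changed. At an unadjusted p below 0.05 the low bins gave 0 of 8 for ATV-TfR and 3 of 8 for ATV-CD98hc, and DESeq2 called none in either. The shares of all genes given here are at the adjusted threshold and are no yardstick for the unadjusted counts. With the pool as a block Mlc1 was called in the ATV-CD98hc low bin (0.33, adjusted p = 0.023). The median change of the 8 genes to the high bin was 0.29 in ATV-TfR and 0.07 in ATV-CD98hc, against -0.02 and -0.05 for all genes.

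The call in the ATV-TfR high bin held for Mlc1 and Dag1 when either ATV-TfR pool was left out, but Aqp4 and Gja1 were then no longer called, and none of the 8 was called in the medium bin. Each such fit has 1 library per bin of the antibody whose pool is left out, with the spread taken from the other groups. A lost call is not read as a smaller change. In the ATV-CD98hc high bin Kcnj10 was called without any 1 ATV pool. There Dag1 was not called once any 1 of the 4 ATV pools was left out, and Mlc1 was called without ATV-CD98hc replicate 2 but not without replicate 1 or either ATV-TfR pool.

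**Figure D3:**
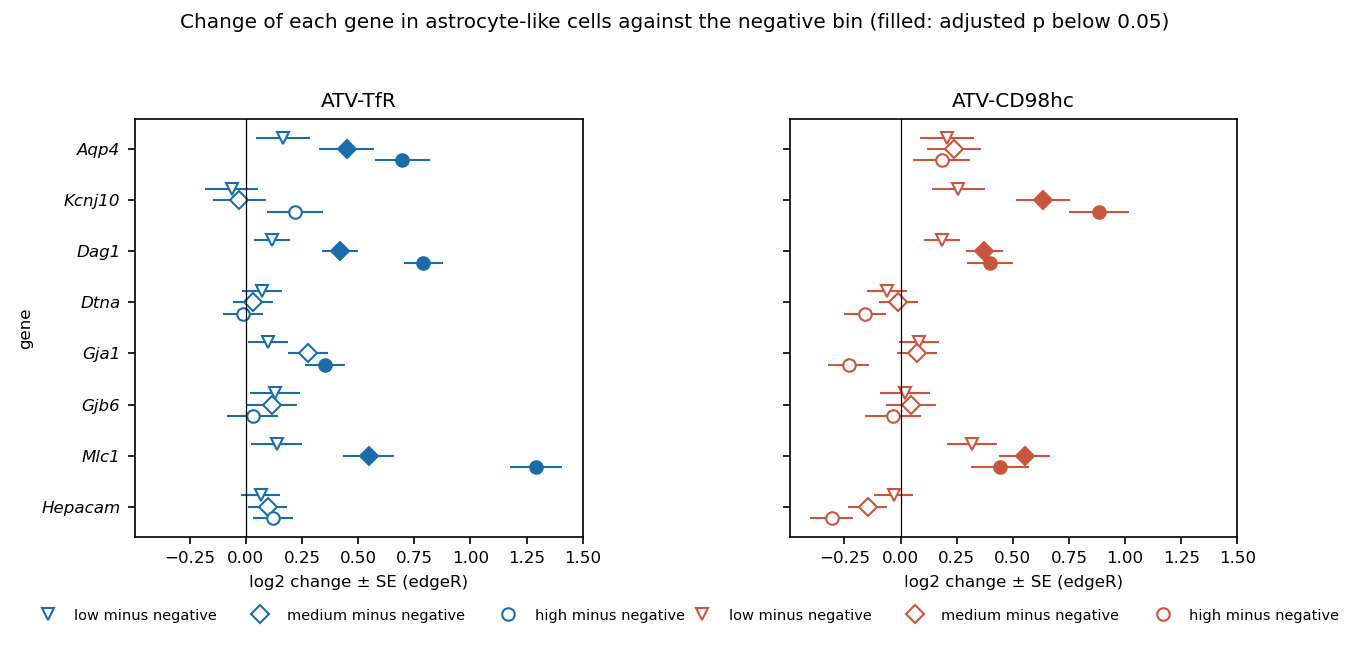
Log2 change ± SE of each gene in astrocyte-like cells from the negative to the low, medium and high bin, for ATV-TfR (left) and ATV-CD98hc (right). Filled symbols have an adjusted p below 0.05. Mlc1 in ATV-TfR (1.29, high) and Kcnj10 in ATV-CD98hc (0.88, high) lie farthest from 0, and no low-bin symbol is filled.

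Whether the 2 antibodies differed was tested as the difference of their changes. For high minus negative the change of Mlc1 was larger in ATV-TfR by 0.85 ± 0.17 (adjusted p = 0.0043, edgeR) and that of Gja1 by 0.59 ± 0.13 (adjusted p = 0.0072). For Kcnj10 the difference was -0.67 ± 0.18 (adjusted p = 0.029), that is, a larger change in ATV-CD98hc. Thus 2 of 8 were larger in ATV-TfR, as were 4.90% of all genes, and 1 was larger in ATV-CD98hc, as were 2.53% (7.43% in either direction). Hepacam (0.43 ± 0.13, adjusted p = 0.052), Dag1 (0.39 ± 0.13, adjusted p = 0.083) and Aqp4 (0.51 ± 0.18, adjusted p = 0.091) did not pass. With the pool as a block, 5 of 8 passed, Aqp4 (0.52, adjusted p = 0.020) and Hepacam (0.43, adjusted p = 0.021) being added, in a fit that called 1583 of 16012 genes, against 1190 without the block. When either ATV-TfR pool was left out, none passed, in fits with 1 ATV-TfR library per bin and the spread taken from the other groups. A lost call there is not read as a smaller difference. For medium minus negative Kcnj10 alone passed, at -0.66 ± 0.17 (adjusted p = 0.024), in a contrast that called 2.95% of all genes in that direction and 5.80% in either. For low minus negative no gene passed in edgeR or DESeq2, none had an unadjusted p below 0.05, and 1.62% of all genes were called.

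The negative bins of the 3 treatments hold cells of the same dosed mice that were sorted for lack of AF647 signal, and they were compared between treatments. None of the 8 was called. Counts at an unadjusted p below 0.05 stand beside shares of all genes called at the adjusted threshold, which are no yardstick for them. ATV-TfR against ATV-CD98hc gave 2 genes with an unadjusted p below 0.05 and 0.787% of all genes called. ATV-TfR against control IgG gave 2, with 0.412% of all genes called, and DESeq2 called 1 of the 8 there. ATV-CD98hc against control IgG gave 1, with 0.0125% of all genes called (0.00625% in each direction). DESeq2 called none of the 8 in the first and the last of these contrasts. The largest of these differences was Kcnj10, 0.44 ± 0.14 lower in ATV-CD98hc than in the control IgG library (log2 difference -0.44, adjusted p = 0.70, edgeR) and 0.42 ± 0.12 higher in ATV-TfR than in ATV-CD98hc (adjusted p = 0.15). Dag1 was lower in ATV-TfR than in control IgG by a log2 difference of -0.33 ± 0.10 (adjusted p = 0.20). Control IgG has 1 library in these contrasts, which is assumed to vary like the other groups. Without ATV-CD98hc replicate 1, Kcnj10 was called against ATV-TfR (0.58, adjusted p = 0.014) and against control IgG (-0.61, adjusted p = 0.017), and without replicate 2, Mlc1 was called against ATV-TfR (0.27, adjusted p = 0.044). These calls rest on 1 ATV-CD98hc negative library, and that against control IgG on 1 library in each arm, with the spread taken from the other groups.

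The astrocyte-like cells fell into 5 clusters that differed in the 8 genes. Cluster 3 (32587 cells in pools of 20 or more) was led by genes that include Cspg5 and Lhx2, cluster 5 (37173 cells) by Agt and Itih3, cluster 4 (11516) by St6galnac5 and Ptprt, cluster 10 (9240) by Kcnd2 and Gria1, and cluster 7 (1419) by Gria4 and Crym. As the clusters were built from the same cells, these levels are a description with no test. Kcnj10 stood at 387 ± 25 CPM in cluster 5 and 179 ± 15 in cluster 3 (SD, n = 5 pools), with every pool of cluster 5 above every pool of cluster 3. Aqp4 stood at 912 ± 108 in cluster 7, 892 ± 84 in cluster 5, 692 ± 18 in cluster 3 and 446 ± 49 in cluster 4. Gja1 stood at 1327 ± 67 in cluster 5, 867 ± 117 in cluster 4 and 436 ± 83 in cluster 10. Dtna went the other way, at 1732 ± 97 in cluster 4 and 1514 ± 61 in cluster 10 against 972 ± 48 in cluster 5. Mlc1 stood at 380 ± 38 in cluster 3 and 296 ± 28 in cluster 5, and was highest, at 720 ± 88, in the small cluster 7, whose cells had a median of 1566 UMIs and where Dtna stood at 238 ± 103.

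**Figure D4:**
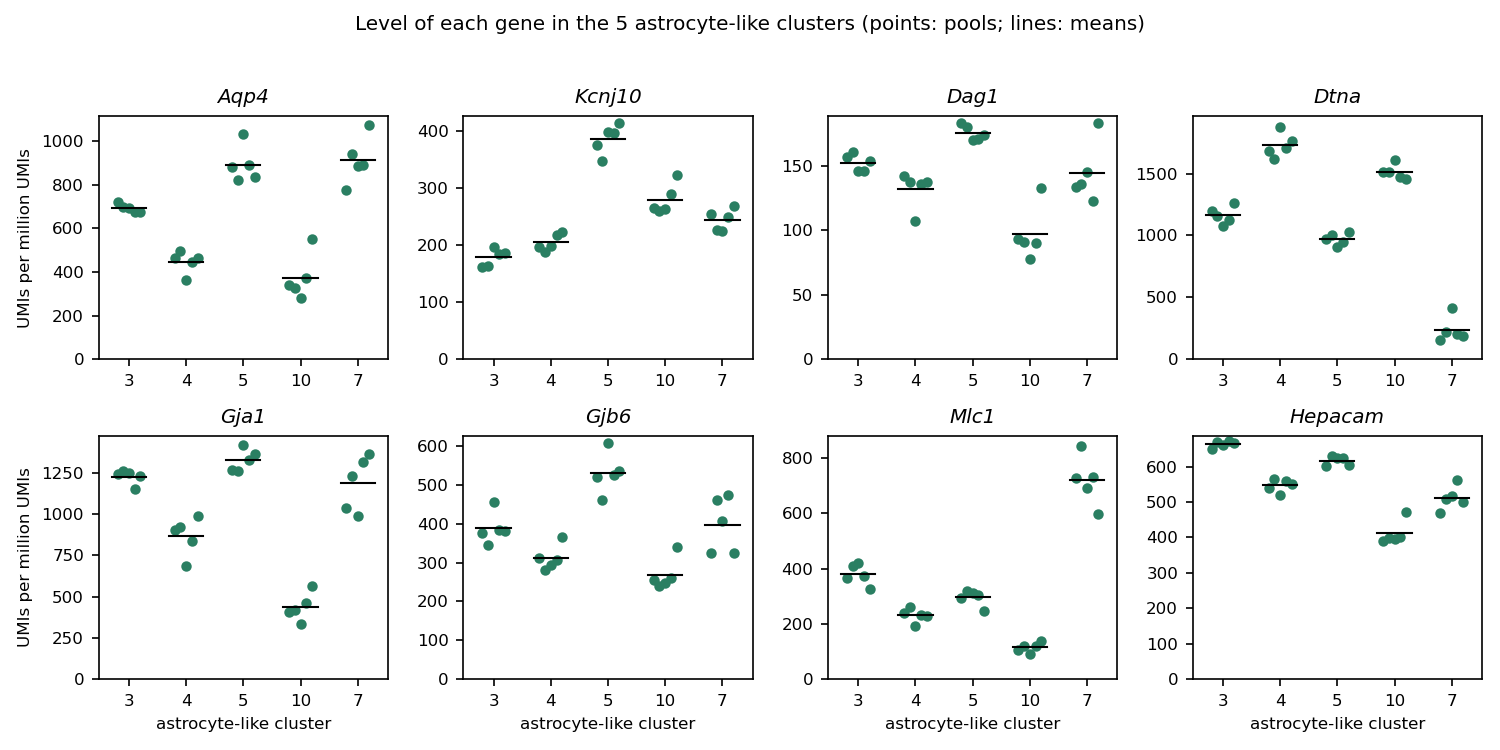
Level of each gene, in CPM (y axes start at 0), in the 5 astrocyte-like clusters. Points are 5 pools and lines their means. Kcnj10 is highest in cluster 5 (387) and lowest in cluster 3 (179), and Dtna is highest in cluster 4 (1732).

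The mix of these clusters moved with the bins. Cluster 5 made up 36.4% and 27.6% of astrocyte-like cells in the 2 negative libraries of ATV-CD98hc and 64.3% and 47.8% in its high libraries. Cluster 3 made up 37.1% and 50.3% of the negative and 6.59% and 11.2% of the high libraries. In ATV-TfR cluster 3 went from 32.3% and 34.1% in the negative to 48.7% and 49.0% in the high libraries, and cluster 5 from 31.3% and 34.9% to 36.3% and 32.6%. Cluster 10, where Mlc1 (114 ± 18 CPM), Gja1, Aqp4, Gjb6, Hepacam and Dag1 had their lowest level of the 5 clusters, went from 9.57% and 4.58% in the negative to 22.5% and 30.7% in the high libraries of ATV-CD98hc. In ATV-TfR it went from 11.4% and 11.9% to 6.28% and 4.98%. Cells of cluster 10 had a median of 2044 UMIs. Of the 12 astrocyte markers, 9 met the naming rule there, against 11 or 12 in the other astrocyte-like clusters. Cluster 7, where Mlc1 was highest, went from 9.65% and 5.76% to 1.70% and 2.99% in ATV-TfR and from 1.65% and 4.42% to 0% and 0.976% in ATV-CD98hc. The changes were therefore also measured within clusters. Cluster 5 was among the planned settings, and clusters 3, 4 and 10 were added after seeing the data.

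Within cluster 5 the ATV-TfR change to the high bin was 1.24 ± 0.13 for Mlc1 (adjusted p = 2.6e-07, edgeR), 0.68 ± 0.11 for Dag1 (adjusted p = 0.00020) and 0.43 ± 0.13 for Aqp4 (adjusted p = 0.039), and Gja1, at 0.22 ± 0.09, did not pass (adjusted p = 0.17). Within cluster 3 it was 1.21 ± 0.12 for Mlc1, 0.85 ± 0.10 for Dag1, 0.89 ± 0.08 for Aqp4 and 0.33 ± 0.09 for Gja1, all 4 called, and Kcnj10 was called as well, at 0.39 ± 0.12 (adjusted p = 0.024). Within cluster 4, which had 41 and 42 cells in the ATV-TfR high libraries, Mlc1 (1.11, adjusted p = 0.00010) and Aqp4 (0.64, adjusted p = 0.026) were called. The rise of Mlc1 and Aqp4 in ATV-TfR was thus measured inside each of these 3 clusters. Where genes of the 8 were called within a cluster, the share of all genes called is not given here. No excess of the 8 over all genes is claimed for these fits. For ATV-CD98hc the change of Kcnj10 within cluster 5 was 0.45 ± 0.11 (adjusted p = 0.030), against 0.88 over all astrocyte-like cells, while that of Mlc1 was larger within cluster 5 (0.79 ± 0.15, adjusted p = 0.0017, against 0.44). Dag1 did not pass within cluster 5 (0.23 ± 0.13, adjusted p = 0.48). Cluster 3 had 12 and 23 cells in the ATV-CD98hc high libraries, the first of which was left out. That leaves 1 library, assumed to vary like the other groups, and none of the 8 was called there, where 13 of 14546 genes were called. In the medium bin of ATV-CD98hc, where cluster 3 had 218 and 353 cells, its changes were 1.01 ± 0.11 for Mlc1 (adjusted p = 1.9e-06), 0.74 ± 0.11 for Kcnj10 (adjusted p = 0.00012) and 0.53 ± 0.09 for Dag1 (adjusted p = 0.00053). For the high bin the difference between the antibodies was called for none of the 8 within cluster 5, where 28 of 14275 genes were called, and for Kcnj10 it was -0.18 ± 0.16 (adjusted p = 0.82). Within cluster 3 it rests on the 1 library of 23 cells, and 4 of 14546 genes were called, none of the 8 among them. For the medium bin it was called within cluster 3 for Kcnj10 (-0.74, adjusted p = 0.017) and Aqp4 (0.48, adjusted p = 0.047). Cluster 10, with 37 and 20 cells in the ATV-TfR high libraries, is not drawn. None of the 8 was called there in either high bin, and Mlc1 in ATV-TfR stood at 0.10 ± 0.41.

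**Figure D5:**
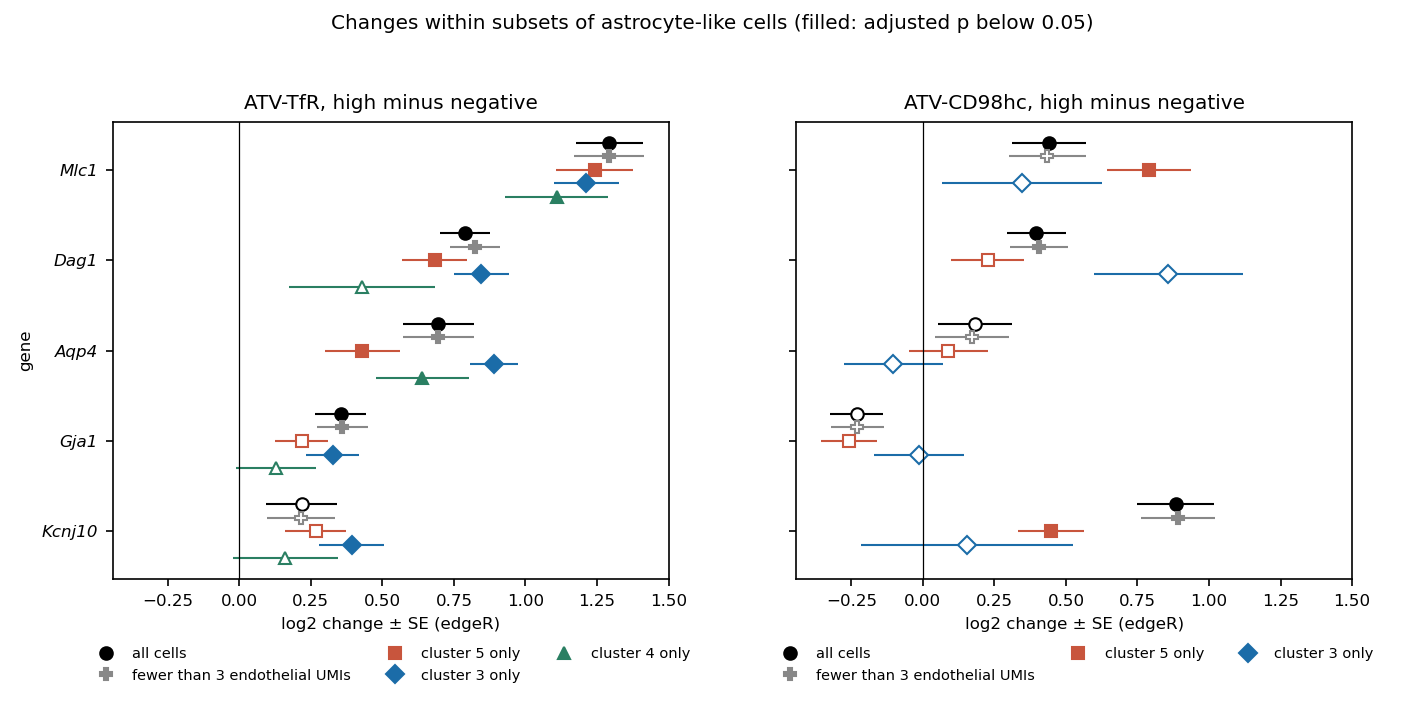
Log2 change ± SE from the negative to the high bin for the 5 genes called in either antibody, over all astrocyte-like cells, over cells with fewer than 3 endothelial marker UMIs and within single clusters. Filled symbols have an adjusted p below 0.05. Mlc1 in ATV-TfR lies at 1.11 to 1.29 in every subset drawn, and Kcnj10 in ATV-CD98hc drops from 0.88 to 0.45 within cluster 5.

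RNA of endothelial cells, the main cells of the high bins of both ATVs, moved with the bins too. The 12 endothelial markers summed to 9.75 to 13 CPM in the astrocyte-like cells of the 4 ATV negative libraries, 9.69 and 14.1 in the low, 35.5 and 41.5 in the medium and 338 and 532 in the high libraries of ATV-TfR. In ATV-CD98hc they summed to 39.9 and 61.9 in the low, 398 and 545 in the medium and 193 and 211 in the high libraries, and to 46.4 in the control IgG negative library. At least 11 of the 12 markers had a UMI in each of these libraries. Endothelial-like cells themselves held 2.51 CPM of Aqp4, 2.17 of Mlc1 and 1.66 of Kcnj10. They held 83.2 of Dag1, against 127 to 147 in the astrocyte-like cells of the 4 ATV negative libraries. Among astrocyte-like cells with fewer than 3 endothelial UMIs, the ATV-TfR changes were 1.29 for Mlc1, 0.82 for Dag1, 0.69 for Aqp4 and 0.36 for Gja1, all called, and those of ATV-CD98hc were 0.89 for Kcnj10 (adjusted p = 0.00014), 0.40 for Dag1 (adjusted p = 0.017) and 0.44 for Mlc1, which no longer passed (adjusted p = 0.057).

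Astrocyte markers outside the 8 genes moved as well. Their sum stood at 22791 and 22321 CPM in the negative and 30959 and 31325 in the high libraries of ATV-TfR, and at 23012 and 24314 against 22152 and 21349 in ATV-CD98hc. Of the 12, 7 rose and 1 fell in the ATV-TfR high bin (median 0.39), and 1 rose and 6 fell in the ATV-CD98hc high bin (median -0.22). Slc1a2 and Slc1a3, the astrocyte glutamate transporters, rose by 0.92 ± 0.10 and 0.85 ± 0.09 in ATV-TfR, and Slc1a2 fell by 0.47 in ATV-CD98hc (adjusted p = 0.0030, edgeR). Of the 12 oligodendrocyte markers, 9 fell and 1 rose in the ATV-TfR high bin, and they summed to 371 and 423 CPM in the negative and 226 and 263 in the high libraries. Of the 12 microglia markers 9 fell and none rose there, with sums of 218 and 196 against 117 and 148 CPM. Smooth muscle markers summed to 75.8 and 50.3 CPM in the negative and 13.6 and 9.70 in the high libraries of ATV-TfR (4 of 7 tested fell). In ATV-CD98hc they went from 27.4 and 34.2 to 10.1 and 13.7 (none of 7 called). Pericyte markers, of the other mural class that holds Dag1, summed to 169 and 173 CPM in the negative libraries of ATV-CD98hc. They summed to 198 and 212 in its medium and 194 and 225 in its high libraries (lower value first). In ATV-TfR they summed to 149 and 172 in the negative and 172 and 199 in the high libraries, which overlapped. Oligodendrocyte precursor markers summed to 482 and 434 CPM in the negative and 650 and 578 in the high libraries of ATV-CD98hc, where Kcnj10 rose, and 1 of 7 tested rose. Ependymal markers summed to 17.5 and 13.6 CPM in the negative and 41.7 and 47.1 in the high libraries of ATV-CD98hc (1 of 8 rose), where Mlc1, which is highest in ependymal-like cells, rose as well. In ATV-TfR they summed to 25.5 and 17.5 in the negative and 13.3 and 15 in the high libraries (none of 8 called). The part that these shifts have in the results for the 8 genes was not tested.

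The share of astrocyte-like cells with an Mlc1 UMI was higher in the high than in the negative bin of ATV-TfR. After thinning to 1500 UMIs per cell it was 31.1% ± 0.64 in the negative and 54.6% ± 1.1 in the high bin of ATV-TfR (SD, n = 2), and 59.6% and 83.5% without thinning. In ATV-CD98hc it was 31.8% ± 5.3 and 36.1% ± 1.4 after thinning, within the spread of the negative libraries, and 58.4% and 56.8% without thinning. The thinned shares leave out cells below 1500 UMIs, so the shares without thinning are over more cells. Kcnj10 went from 26.3% ± 3.0 to 41.8% ± 8.9 of cells in ATV-CD98hc and from 31.9% ± 1.9 to 36.0% ± 1.2 in ATV-TfR. Microglia-like cells had 0.719% (Mlc1) and 1.52% (Kcnj10) in the ATV-TfR negative bin after the same thinning.

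Lists of 40 genes related to the 8 were counted in the same fits. Of 17 other genes of the dystroglycan complex, its ligands and glycosyltransferases, all 17 were tested. In the ATV-TfR high bin 1 rose and 1 fell, where 9.80% of all genes rose and 6.61% fell, so that these counts lie near those of all genes: Sgcb, a sarcoglycan, by 0.62 ± 0.12 (adjusted p = 0.0018, edgeR), and Dmd, which encodes dystrophin, fell by 0.36 (adjusted p = 0.035). In the ATV-CD98hc high bin, where 3.93% of all genes rose and 3.78% fell, 2 rose, Sgcd, another sarcoglycan, by 1.54 ± 0.20 (adjusted p = 4.7e-05) and Utrn, which encodes utrophin, by 0.58 ± 0.11 (adjusted p = 0.0014). Of 11 other gap junction and hemichannel genes, 8 were tested. None passed in the ATV-TfR high bin and 1 fell in the ATV-CD98hc high bin, Tjp1, which encodes the scaffold protein ZO-1, by 0.40 (adjusted p = 0.019).

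Of 12 other genes of water, potassium and chloride handling, 6 rose and 2 fell in the ATV-TfR high bin, against 9.80% and 6.61% of all genes. Those with the largest changes were Ttyh1, which encodes a chloride channel family member, at 0.87 ± 0.09 (adjusted p = 2.2e-06, edgeR), Aqp9, an aquaglyceroporin, at -0.70 ± 0.15 (adjusted p = 0.0027) and Lrrc8a, a subunit of the volume-regulated anion channel, at 0.50 ± 0.12 (adjusted p = 0.0074). In the ATV-CD98hc high bin 2 rose and 2 fell, against 3.93% and 3.78% of all genes, the largest changes being those of Kcnk1, which encodes a potassium channel, at -1.51 ± 0.12 (adjusted p = 1.1e-07), Lrrc8a at 0.81 ± 0.14 (adjusted p = 0.00082) and Aqp9 at -0.71 ± 0.20 (adjusted p = 0.038). In the low bins none of the 3 lists had a called gene except Kcnk1, which fell by 0.42 in ATV-CD98hc (adjusted p = 0.018). The medians of the 3 lists in the ATV-TfR high bin were 0.09, -0.12 and 0.31, against -0.02 over all genes.

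Outside astrocytes the change from negative to high could be fitted in 5 classes, in 10 class and treatment pairs. The rises were those of Dag1 in choroid plexus epithelial-like cells. Dag1 stood there at 37.6 and 39.9 CPM in the negative and 74.5 and 83.7 in the high libraries of ATV-TfR, and at 43.9 and 21.2 against 89.7 and 79.4 in ATV-CD98hc. High and negative libraries did not overlap. The negative libraries lay around the 35.4 CPM of Dag1 in microglia-like cells, and the high ones above it. Whether that level is background or a low level of the cells themselves was not tested. The changes were 0.93 (adjusted p = 0.0035, edgeR) and 0.95 (adjusted p = 0.0041). These were 1 of 8 genes each, in contrasts where 10.1% and 12.1% of all genes rose. The ATV-TfR change was no longer called when replicate 1 (0.88, adjusted p = 0.11) or replicate 2 (0.96, adjusted p = 0.069) of ATV-TfR was left out. Without ATV-CD98hc replicate 1 that of ATV-CD98hc was 1.70 (adjusted p = 0.018). In control IgG Dag1 stood at 46.3 CPM in the negative library and 88.5 and 61.3 in the high ones, a change of 0.42 (adjusted p = 0.42) where 3.79% of all genes rose.

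In the same cells 4 of the 8 genes fell with ATV-TfR, 5 with ATV-CD98hc and 6 with control IgG, where 13.2%, 18.4% and 5.30% of all genes fell and 23.3%, 30.5% and 9.09% changed in either direction. DESeq2 called 1 of the 8 genes with ATV-TfR (Dag1), 6 with ATV-CD98hc and 5 with control IgG, so that none of the 4 falls with ATV-TfR was called by it. In the negative bins of both ATVs each gene that fell stood below its level in microglia-like cells over all bins. Gja1, for example, stood at 32.6 CPM in ATV-CD98hc. Within the negative bins of all treatments the order differed by gene. There Gja1 stood at 31.8 ± 30 CPM in choroid plexus epithelial-like and 15.6 ± 5.8 in microglia-like cells (SD, n = 5 pools). Kcnj10 stood at 7.79 ± 6.9 and 12.3 ± 2.4. The falls are not read as changes in expression. The control IgG negative bin is 1 library in this and the other classes, and its spread is taken from the other groups. Gjb6 had 22 UMIs in the ATV-CD98hc negative libraries and 0 in the high ones, which allows up to 0.917 CPM there for 3 counts over the group, and Gja1 had 52 and 8 UMIs. Of the 12 astrocyte markers, 9 fell with ATV-TfR, 10 with ATV-CD98hc and 10 with control IgG, and their sum went from 943 to 387 CPM in ATV-CD98hc. In the fibroblast-like cells of control IgG 6 of the 8 genes fell, where 5.81% of all genes fell, and 11 of 12 astrocyte markers fell with them. Gja1, which fibroblast-like cells hold above the background, had 174 UMIs (423 CPM) in the single negative library and 72 UMIs (65.9 CPM pooled) in the high ones (log2 change -2.61, adjusted p = 0.00018). Gjb6 did not pass there (-0.80, adjusted p = 0.20).

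Border macrophage-like cells had 1 of the 8 called in control IgG, where 2.34% of all genes fell and 2.47% changed. This was Gja1, with 7 UMIs (63.6 CPM, 29 cells) in the negative library and 0 in the high ones, which allows up to 1.17 CPM for 3 counts over the group. The level in that 1 negative library lies below the 69.0 CPM of Gja1 in microglia-like cells over all bins. In the negative bins alone microglia-like cells held 15.6 CPM. As it rests on 7 UMIs of 1 library, the level is not read as expression. None passed in ATV-TfR, where 5.06% of all genes rose and 3.58% fell (8.64% in all). Pericyte-like cells (ATV-TfR and ATV-CD98hc), microglia-like cells (ATV-CD98hc) and fibroblast-like cells (ATV-CD98hc) had none of the 8 called by edgeR, where 2.29%, 0.695%, 6.98% and 6.01% of all genes changed. At an unadjusted p below 0.05 these 5 contrasts with none called gave 2, 4, 0, 1 and 2 genes, and DESeq2 called 0, 0, 0, 0 and 1. The shares of all genes are at the adjusted threshold and are no yardstick for the unadjusted counts. Dag1, the gene that pericyte-like cells hold at the highest level of the 8, changed by -0.26 and -0.12 in them. Of the endothelial-like clusters, cluster 20 had 5 and 8 cells and cluster 22 had 17 and 17 in the negative bins of ATV-TfR and ATV-CD98hc, too few for a fit, and cluster 19 was fitted by its number, a choice made after seeing the data. Dag1 stood there at 101 CPM in the negative and 77.7 in the high bin of ATV-TfR, and at 85.4 and 86.0 in ATV-CD98hc, with changes of -0.23 (adjusted p = 0.68) and 0.09 (adjusted p = 0.93). Of the 8 genes, 2 fell in cluster 19 in ATV-CD98hc (Dtna, with 5 UMIs in the negative and 19 in the high libraries, or 15.5 and 0.791 CPM pooled, and Kcnj10, with 3 and 1), where 3.01% of all genes fell. These levels lie below those in microglia-like cells (85.0 CPM for Dtna and 21.1 for Kcnj10) and are not read as expression, and without ATV-CD98hc replicate 1 Dtna did not pass (adjusted p = 0.74, edgeR). None of the 8 passed in ATV-TfR, where 6.92% of all genes changed.

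Across 25 clusters of at least 100 cells, the genes most like each of the 8 were ranked by Pearson's r of log2(CPM + 1), as a description over clusters that share libraries. Aqp4 was most like Slc25a18 (r = 0.995), Kcnj16 (0.993) and Gpr37l1 (0.990). Hepacam and Kcnj10 were among each other's nearest (0.988), and Aqp4 was the gene nearest to Mlc1 (0.982), with Slc25a18 and Nkain4 next (both 0.978). Gjb6 was nearest to F3 (0.976), Dtna to Fmn2 (0.971) and Gja1 to Slc25a34 (0.944). Dag1 had the lowest likeness to its nearest gene, Six5 (0.913).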

How the data were processed

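Brain cells of 23 libraries were profiled by droplet single-cell RNA-seq. The authors deposited UMI counts per gene and cell, made with Cell Ranger 7.1.0 per the file headers, and the submitters' processing notes also name Seurat 4 and 5 and the builds mm10 and GRCm38. Groups came from the labels. Of 265025 barcodes, those with at least 500 genes, 800 UMIs and at most 10% mitochondrial UMIs were kept, and 15693 doublets were removed with Scrublet (scanpy 1.11.5), by its automatic threshold in 15 libraries and by the score's percentile 94 in 8 where that threshold marked under 0.5% or over 25% of cells. Cells were clustered (2000 variable genes without the 8 genes, 50 components, 15 neighbours, leidenalg 0.10.2 at resolution 1) and named from marker lists. Counts were summed per class and library with at least 20 cells and tested with edgeR 4.0.16 (quasi-likelihood, TMM, filterByExpr, 1 mean per group over all groups, Benjamini-Hochberg), with a call at an adjusted p below 0.05. On simulated data, 100% of 100 genes changed 2-fold and of 100 changed 4-fold were recovered in the contrast of ATV-TfR high against negative, over 15001 genes. The simulated libraries held no pool effect. Changes smaller than 2-fold, as most called ones of the 8 genes were, were not simulated. Motif searches and CPM values were computed from the files and from RefSeq.

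The members, the marker and related lists and the tests were chosen with earlier results of these data known. Named related genes were the called ones with the largest changes of each list, at most 3 per list and contrast. Bins of 1 pool come from the same animals, so a fit with the pool as a block was an alternative, and deviations of paired libraries correlated across 16012 genes at r = 0.015 to 0.38 over 12 pairs of bins. Other alternatives were RLE factors, DESeq2 1.42.0, the filter on low counts, each replicate left out, at least 50 cells per library, no doublet removal, the 8 genes allowed in clustering, the largest cluster, and cells with fewer than 3 endothelial UMIs. Single clusters 3, 4 and 10 were added after seeing the data. Upper limits given for a count of 0 cover counting error only. Standard errors were derived from the edgeR test, as the absolute log2 change divided by the square root of its F statistic, and SDs are taken over pools.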

Additional observations from a re-analysis of the deposited data

Results flagged for a closer look

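In 4 cases the change from the negative bin differed between the antibodies by a test of the difference itself (edgeR, ATV-TfR change minus ATV-CD98hc change, 2 pools per group). For the high bin these were Mlc1 (0.85, adjusted p = 0.0043), Gja1 (0.59, adjusted p = 0.0072) and Kcnj10 (-0.67, adjusted p = 0.029). For the medium bin it was Kcnj10 (-0.66, adjusted p = 0.024). The 3 high-bin differences and the medium-bin one were no longer called when either ATV-TfR pool was left out. Those fits have 1 ATV-TfR library per bin, with the spread taken from the other groups. Within cluster 5 alone the high-bin difference was called for none of the 8 genes, and the mix of clusters differed between the antibodies, as given above. Antibody and genotype coincide here and cannot be told apart.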

How the results depend on the processing

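The 17 changes called among the 8 genes in astrocyte-like cells were recomputed 317 times over the alternatives: 254 stayed called in the same direction, 56 kept the direction without passing and 7 changed sign, none of them called. Of 1451 recomputed changes that had not passed, 31 became called. None of the 8 genes was called in the ATV-TfR low bin under any alternative. Leaving out 1 replicate gave counts of called genes of 2 to 4 for ATV-TfR high, 0 to 4 for ATV-TfR medium, 1 to 3 for ATV-CD98hc high, 0 to 1 for ATV-CD98hc low, 0 to 5 for the difference in the high bin, 0 to 1 for those in the medium and low bins, 0 to 1 for the negative bins of ATV-CD98hc against ATV-TfR or control IgG, 12 to 27 for the other classes (12 without control IgG replicate 2, the only negative library of that group) and 1 to 2 for endothelial-like cluster 19.

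Within cluster 10 the counts were 0 for ATV-TfR medium and high, ATV-CD98hc high and the differences in the medium and high bins, and 1 for ATV-CD98hc medium and for each ATV negative bin against control IgG. Within cluster 4 they were 2 for ATV-TfR high and 0 for the difference in the medium bin. Within cluster 3 they were 1 for ATV-CD98hc low, 0 for ATV-CD98hc high, 2 for the difference in the medium bin and 0 for that in the high bin. In the largest cluster they were 1 for ATV-CD98hc medium and 0 for the differences in the medium and high bins. Without a filter on low counts, 1 gene was called for ATV-CD98hc low and in the negative bins of ATV-CD98hc against ATV-TfR and against control IgG. DESeq2 called 1 in the negative bins of ATV-TfR against control IgG and 4 in cluster 19, and in ATV-TfR medium, ATV-CD98hc high and the difference in the high bin it called 4 each, against 3 each by edgeR. With ATV-TfR in choroid plexus epithelial-like cells it called 1, against 5 by edgeR. With the replicate block, which pairs bins of a pool, the count was 5 for the difference in the high bin and 1 for ATV-CD98hc low. The block changed no call of the 8 genes in astrocyte-like cells other than those given with the results.

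Signs changed within cluster 10 for Aqp4 (-0.26), Dag1 (-1.05), Gja1 (-0.12) and Ttyh1 (-0.13) and Sgcb (-1.21) in ATV-TfR high, Dag1 in ATV-CD98hc medium (-0.18) and high (-0.033), Kcnk1 in ATV-CD98hc low (0.048), Aqp9 in ATV-CD98hc high (0.20) and Mlc1 for the difference in the high bin (-0.65). They changed within cluster 3 for Kcnj10 in that difference (0.24 ± 0.38 SE, with 1 ATV-CD98hc high library) and Utrn in ATV-CD98hc high (-0.27), within cluster 4 for Sgcb (-0.74) and Dmd (0.0036) in ATV-TfR high, and for Kcnj10 in choroid plexus epithelial-like cells in ATV-CD98hc high, which ranged from -7.37 to 3.07 when 1 replicate was left out (3.07 without ATV-CD98hc replicate 1). The high bin of ATV-CD98hc could not be fitted within cluster 4. Single clusters hold fewer cells, and the cause was not tested further. The ATV-CD98hc high libraries held 182 and 205 astrocyte-like cells.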
